A study of Mus musculus with 5 samples.

Results

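Among 178 probes on microarrays of mouse T cells, 7 read small RNAs that are not microRNAs, and these are the subject here. They were chosen by name, as every probe with RNA in its identifier. The rule used no measured value, though it was set with earlier results of these data known. For transfer RNAs there were 4 probes (tRNA-his, tRNA-ala, tRNA-met and tRNA-pro), and for small nuclear RNAs there were 3 (4.8S_U6-snRNA, 5.4S_snRNA and AJ007734_snRNA). The remaining 171 probes read microRNAs. The labels do not say which isoacceptor a transfer RNA probe matches, or whether a probe reads the mature RNA, a precursor or a fragment, and the platform annotation used here names a gene for 0 of the 7.

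Transfer RNAs carry amino acids to the ribosome, each matched to its codons, and the names of the 4 probes give the amino acids histidine, alanine, methionine and proline. Methionine transfer RNAs include the one that starts every protein chain. The small nuclear RNA U6 forms part of the catalytic core of the spliceosome, which removes introns from messenger RNA precursors. U6 and transfer RNA genes are transcribed by RNA polymerase III, and U6 and other small RNAs of this kind are often used as loading references when microRNAs are measured, on the premise that their level stays the same between samples. The identities behind the names 5.4S_snRNA and AJ007734_snRNA could not be taken from the labels, and no role is assigned to them.

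The series held 5 arrays of 2 channels, each setting total RNA of activated CD4+25- T cells (helper T cells without the CD25-positive population, which is rich in regulatory T cells) against RNA of the same kind of cell that had not been activated, called naive after the series title. Cells activated overnight were on 1 array, with the activated RNA in Cy5 and no dye swap. Cells activated for 3 days and for 10 days were each on 2 arrays of opposite dye. For strain, age, activating agent and culture the sources used here give nothing. They also leave unstated whether opposite-dye arrays came from separate extracts and whether naive RNA was shared between arrays.

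Each value is the deposited ratio of the channels, read as log2 and turned so that a positive value means higher in activated cells, with Cy5 taken as the numerator. That direction is likely, not stated, because it gives activated over naive, the order of the array titles, on the arrays with activated RNA in Cy5. Every direction below would turn if Cy3 were the numerator, and every fold rests on the log base. No value was missing. A ratio carries no level, so it is unknown which probes exceeded background, and the number of arrays limits the precision. In these bulk samples fewer cells of a type and less RNA per cell cannot be told apart.

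The zero of the arrays differed. The median log2 ratio of the 171 microRNA probes was -1.75 on the overnight array, 0.20 and 1.42 on the day 3 arrays with activated RNA in Cy5 and in Cy3, and -0.51 and -0.38 on the day 10 arrays in the same order. Values are therefore given on 2 scales: as deposited, and less the microRNA median of the same array. On the second scale the T cell probe 1org-150 was at 1.47, -6.05 and -0.84 overnight, at day 3 and at day 10, 1org-181 at 0.20, -5.34 and -3.08, 1org-142-s at -0.14, -2.24 and -0.91, and miR-155 (1org-155) at 1.80, 4.07 and 0.80. Of other blood cells, the myeloid probe 2org-223 stood at -0.26, -1.05 and -0.997, and miR-144 of erythroid cells (1org-144) at -0.49, 0.22 and -0.21. As ratios these cannot show whether either cell type was present.

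No sequence of the 7 probes was at hand. In their place, 4 microRNAs that serve below as measures are shown, from RefSeq on GRCm38.p6, with the seed (bases 2 to 8) in capitals. MiR-155, whose gene gives a microRNA that antigen receptor signals induce, is followed under each candidate reference. MiR-26b, miR-25 and miR-93 are the annotated microRNAs, with a sequence in the table used, whose probes ran closest to tRNA-ala, 4.8S_U6-snRNA and tRNA-pro. The annotation names the gene and not the arm that the probe reads, so both arms are given, and all 8 seeds differ.
mmu-miR-155-5p, chr16:84714143-84714165, plus strand: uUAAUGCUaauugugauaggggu
mmu-miR-155-3p, chr16:84714182-84714202, plus strand: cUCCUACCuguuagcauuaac
mmu-miR-26b-5p, chr1:74394324-74394344, plus strand: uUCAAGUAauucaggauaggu
mmu-miR-26b-3p, chr1:74394360-74394381, plus strand: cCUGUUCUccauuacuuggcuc
mmu-miR-25-3p, chr5:138165332-138165353, minus strand: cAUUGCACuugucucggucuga
mmu-miR-25-5p, chr5:138165370-138165391, minus strand: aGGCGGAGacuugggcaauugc
mmu-miR-93-5p, chr5:138165574-138165596, minus strand: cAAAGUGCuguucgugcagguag
mmu-miR-93-3p, chr5:138165536-138165557, minus strand: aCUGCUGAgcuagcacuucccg

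At day 3 of activation the transfer RNA probes for histidine, alanine and methionine and the U6 probe were all at least 2-fold lower in activated than in naive cells, on both arrays of the dye pair. By day 10 these differences were smaller, and tRNA-his was the only member still 2-fold lower as deposited. The proline transfer RNA probe and the remaining small nuclear RNA probes had pair means within 2-fold of naive cells at days 3 and 10. Single day 3 arrays differed: tRNA-pro was at -1.06 and AJ007734_snRNA at -1.04 with activated RNA in Cy5, but at 0.34 and 0.93 in Cy3. Set against the microRNA median, the same 4 members and tRNA-pro were 2-fold lower at day 3 and none was at day 10.

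The histidine transfer RNA probe moved most at day 3. As deposited, the log2 ratio of tRNA-his was -1.20 on the overnight array, -3.69 and -3.60 on the day 3 arrays with activated RNA in Cy5 and Cy3, and -1.10 and -1.34 on the day 10 arrays in the same order. It was below 0 on all 5 arrays, and its day 3 arrays lay apart from the others. The day 3 mean of -3.65 is 12.5-fold lower in activated cells, and only 4 of the 171 microRNA probes had a lower mean. Relative to the microRNA median tRNA-his was at 0.54 overnight, at -3.89 and -5.02 at day 3 and at -0.59 and -0.96 at day 10. The overnight sign was thus the opposite of that at day 3, but it rests on 1 array without a dye swap. In the fit with a dye term given below, the overnight estimate was 0.17, near the median.

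The alanine transfer RNA probe was also lowest at day 3. As deposited, tRNA-ala was at -1.94 overnight, at -2.41 and -2.58 at day 3 and at -0.49 and -0.77 at day 10, below 0 on all 5 arrays. With the microRNA median taken off it was at -0.19 overnight, at -2.61 and -4.00 at day 3 and at 0.02 and -0.38 at day 10. The overnight value lay close to the array's own median, and so did the day 10 values, while at day 3 it was 9.87-fold below the median, with 9 microRNA probes lower.

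The methionine transfer RNA probe was the least changed of the 3 that were lower at day 3. As deposited, tRNA-met was at -1.18 overnight, at -1.85 and -1.97 at day 3 and at -0.67 and -1.06 at day 10. It was below 0 on all 5 arrays, as tRNA-his and tRNA-ala were, which held for 11.8% of all probes. Its distance from the microRNA median was 0.57 on the overnight array, -2.05 and -3.39 on the day 3 arrays and -0.16 and -0.68 on the day 10 arrays.

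The proline transfer RNA probe stood apart from the other transfer RNAs. As deposited, tRNA-pro was at -0.07 overnight, at -1.06 and 0.34 at day 3 and at -0.36 and -0.26 at day 10, so the day 3 arrays differed in sign. Its means over the 3 times spanned 0.29, and 1 of the 171 microRNA probes had a narrower span. Against the moving microRNA median the same probe was at 1.68 overnight, at -1.26 and -1.08 at day 3 and at 0.15 and 0.12 at day 10, and here both arrays of each pair had the same sign.

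The U6 probe was the only member above 0 overnight as deposited. The log2 ratio of 4.8S_U6-snRNA was 0.36 on the overnight array, -2.94 and -1.47 on the day 3 arrays and -0.63 and -0.67 on the day 10 arrays. The day 3 mean of -2.20 was 4.61-fold lower in activated cells, with the arrays of that pair 0.74 to either side of it. On the scale less the microRNA median U6 was at 2.11 overnight, at -3.14 and -2.89 at day 3 and at -0.11 and -0.29 at day 10. Its place among the microRNA probes moved accordingly, with 156 of 171 below it overnight, 11 at day 3 and 70 at day 10.

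The remaining small nuclear RNA probes stayed near the bulk of the microRNAs. As deposited, 5.4S_snRNA was at -1.66 overnight, at 0.09 and 1.00 on the day 3 arrays and at 0.67 and -0.73 at day 10. AJ007734_snRNA was at -2.02 overnight, at -1.04 and 0.93 at day 3 and at -0.46 and -0.65 at day 10. Neither probe had a pair mean 2-fold from 0 at day 3 or day 10 on either scale. After the microRNA median was taken off, 5.4S_snRNA was at 0.09 overnight, at -0.11 and -0.42 at day 3 and at 1.18 and -0.34 at day 10, and AJ007734_snRNA at -0.27, at -1.24 and -0.50, and at 0.05 and -0.27.

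**Figure D1:**
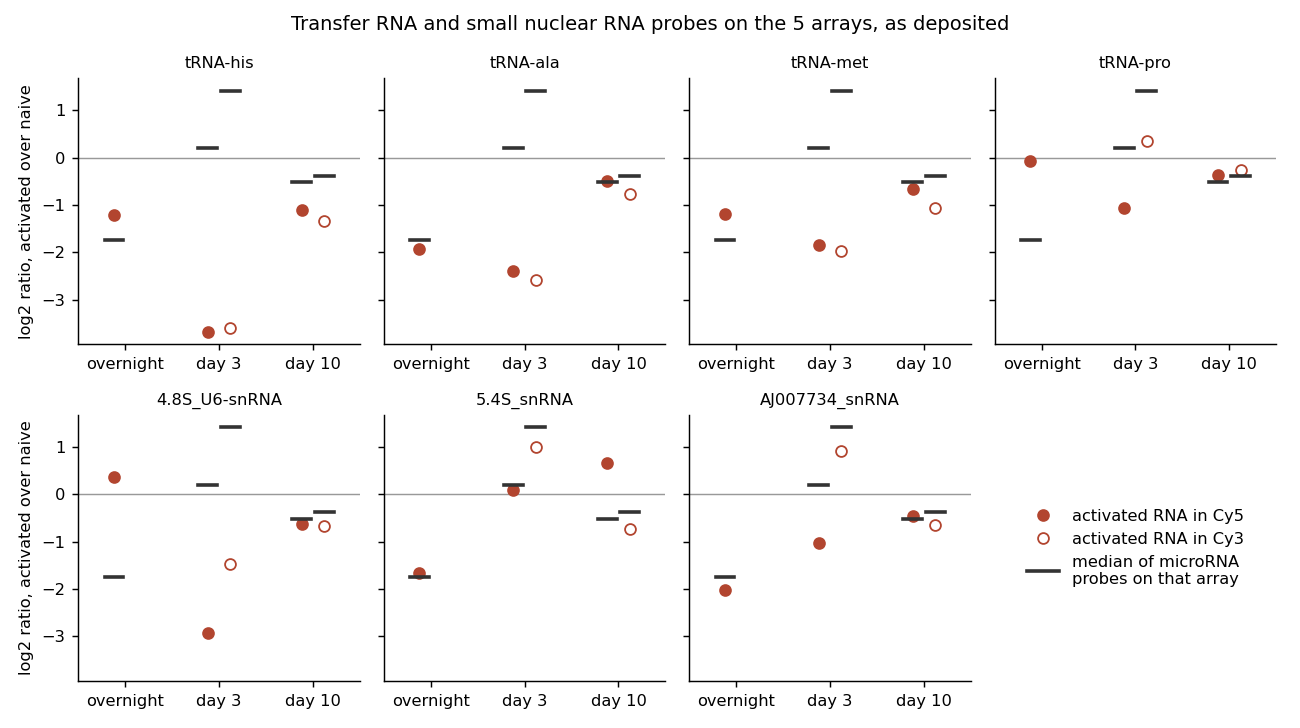
Log2 ratio of activated over naive cells as deposited (y axis) for each of the 7 probes on the 5 arrays, by activation time (x axis); filled points are arrays with activated RNA in Cy5, open points arrays with it in Cy3, and black bars the median of the 171 microRNA probes on that array. At day 3 tRNA-his, tRNA-ala, tRNA-met and 4.8S_U6-snRNA lie below 0 and below the bars on both arrays, and at day 10 the points of all members lie between -1.34 and 0.67.

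By the size rule (a mean log2 ratio at least 1 from 0 with the same sign on both arrays), 4 of the 7 members were lower at day 3 as deposited, against 14.6% of all 178 probes, and 5 were lower less the microRNA median, against 21.9%. None was higher on either scale, where 36.5% of all probes were as deposited and 14.6% less the median. The median of the members at day 3 was -1.91 as deposited, beside 0.80 over all probes, and -2.72 less the microRNA median, beside -0.01. At day 10 the lower count was 1 as deposited against 16.9% of all probes, and 0 less the microRNA median against 3.93%. Their medians at day 10 were -0.63 as deposited, beside -0.57 over all probes, and -0.18 less the microRNA median, beside -0.12.

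Overnight 5 members were at least 2-fold lower as deposited, where 73% of all probes were, so the count was no feature of these probes. Against the microRNA median none was 2-fold lower overnight, where 3.93% of all probes were, and 2 were higher, 4.8S_U6-snRNA at 4.31-fold and tRNA-pro at 3.20-fold, against 21.9% of all probes. With the dye effect measured in the dye pairs taken off, the overnight U6 value as deposited was 0.72 and that of tRNA-pro 0.31. These overnight values come from 1 array. Day 3 minus overnight, tested with the dye term after the values were seen, was called lower for 5 members less the microRNA median (4.8S_U6-snRNA and all transfer RNA probes), against 21.9% of all probes. As deposited it was called lower for 4.8S_U6-snRNA and tRNA-his, against 3.93%, and higher for 5.4S_snRNA, against 63.5%. Day 10 minus overnight was called for 1 member, 4.8S_U6-snRNA less the median, which was lower, against 6.18%.

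**Figure D2:**
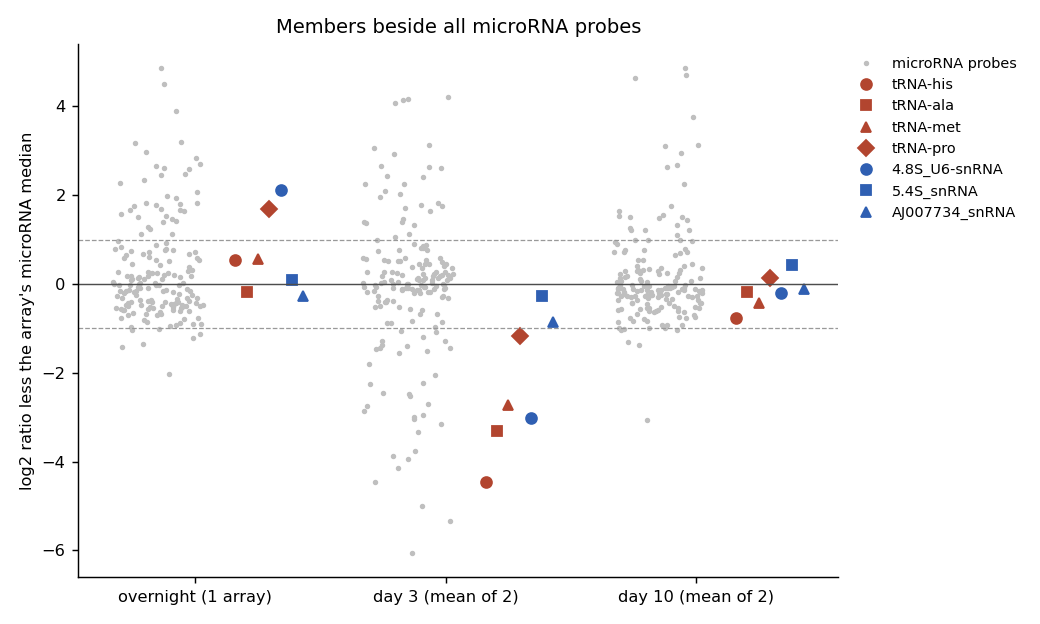
Log2 ratio less the microRNA median of the same array (y axis) at the 3 activation times (x axis), for the 171 microRNA probes (grey), the 4 transfer RNA probes (red) and the 3 small nuclear RNA probes (blue); values are 1 array overnight and means of 2 arrays at days 3 and 10, and dashed lines mark 2-fold. At day 3 the members run from -4.46 to -0.27, at day 10 from -0.77 to 0.42.

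A fit over the 5 arrays with a term for each time and for the dye (limma, adjusted p over all 178 probes) called the same 4 members lower at day 3 as deposited and the same 5 less the microRNA median, against 14.6% and 23% of all probes. As deposited, the day 3 estimate of tRNA-his was -3.65 ± 0.45 (SE), with an adjusted p of 1.2e-12 in limma. That of tRNA-ala was -2.49 with an adjusted p of 6.1e-07, that of 4.8S_U6-snRNA -2.20 with 1.0e-05 and that of tRNA-met -1.91 with 0.00013. The SE was the same for every probe, because limma's moderation across probes pooled it fully. After the terms for time and dye, 5 arrays leave little to measure a single probe's spread, so the small p-values rest on that pooling. For tRNA-pro (-0.36, adjusted p = 0.46), 5.4S_snRNA (0.54, adjusted p = 0.27) and AJ007734_snRNA (-0.06, adjusted p = 0.91) the limma fit did not pass as deposited. Once the microRNA median was taken off tRNA-pro passed at -1.17 (limma adjusted p = 0.0068), AJ007734_snRNA was at -0.87 (adjusted p = 0.057) and 5.4S_snRNA at -0.27 (adjusted p = 0.70). Such p-values cover array-to-array spread alone, and this is technical where opposite-dye arrays share their extracts. Less the microRNA median, the fit's overnight estimates, from 1 array, were 2.13 for 4.8S_U6-snRNA and 1.72 for tRNA-pro. Those of the other members ran from -0.64 for tRNA-ala to 0.17 for tRNA-his. Overnight the same fit called tRNA-ala and 5.4S_snRNA lower as deposited, against 38.2% of all probes.

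At day 10 the fit called tRNA-his lower as deposited, at -1.22 ± 0.45 (SE; limma adjusted p = 0.045), against 11.8% of all probes. It called no member less the microRNA median, against 2.81%, where tRNA-his was at -0.77 (limma adjusted p = 0.16). The call at day 10 thus depended on the zero of the array. Before adjustment the limma p of tRNA-his less the median was 0.044, and the share of all probes under 0.05 was not counted.

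With a dye pair counted as 1 replicate and the 3 times as 3 replicates, limma called none of the 7 members after adjustment, on either scale, and 0% of the 178 probes. As deposited tRNA-his had a mean of -2.02 ± 0.92 (SE) and was below 0 at 3 of 3 times, with a limma adjusted p of 0.60. As deposited this SE too was pooled fully and was the same for every probe, so it is not the spread of tRNA-his itself. With that pooled SE, tRNA-his was the 1 member under 0.05 before adjustment, beside 5.06% of all probes on the lower side. On the scale less the microRNA median no member was under 0.05 before adjustment, and limma's adjusted p ran from 0.62 for tRNA-ala to 0.94 for 5.4S_snRNA. With the 5 arrays as replicates instead, the mean of the 3 times was called lower for tRNA-his, tRNA-ala and tRNA-met on both scales, against 22.5% of all probes as deposited and 15.7% less the median.

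Between day 10 and day 3 the same 4 members differed by the size rule, all toward higher ratios at day 10, that is toward naive cells. As deposited, day 10 minus day 3 was 2.43 for tRNA-his, 1.86 for tRNA-ala, 1.55 for 4.8S_U6-snRNA and 1.04 for tRNA-met, with no overlap of the dye pairs. In total, 4 of 7 members met this rule, against 14.6% of all probes, and 0 were lower at day 10, against 39.9%. The remaining differences as deposited were 0.05 for tRNA-pro, -0.50 for AJ007734_snRNA and -0.57 for 5.4S_snRNA. In the fit over 5 arrays tRNA-his (limma adjusted p = 0.0017), tRNA-ala (adjusted p = 0.011) and 4.8S_U6-snRNA (adjusted p = 0.032) passed, against 10.1% of all probes, and tRNA-met (adjusted p = 0.15) did not.

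With the microRNA median taken off 5 members met the rule, with tRNA-pro added at 1.31, against 29.8% of all probes. Of these tRNA-his (3.68), tRNA-ala (3.12), 4.8S_U6-snRNA (2.81) and tRNA-met (2.30) passed the limma fit with adjusted p-values of at most 0.00017, against 24.2% of all probes, while tRNA-pro did not (adjusted p = 0.051). The larger differences on this scale come with the array medians, which fell by 1.26 between the day 3 and day 10 pairs.

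Ratios between members do not depend on the zero of an array. The difference of tRNA-ala and tRNA-met varied least over the 5 arrays (SD 0.49), followed by that of 5.4S_snRNA and AJ007734_snRNA (SD 0.57) and that of 4.8S_U6-snRNA and tRNA-his (SD 0.70). The U6 probe thus ran closer to a transfer RNA than to the probes of its own class, from which it differed with an SD of 1.88 (AJ007734_snRNA) and 2.03 (5.4S_snRNA). Of the 21 pairs, 5.4S_snRNA and tRNA-his were farthest apart (SD 2.12), with 5.4S_snRNA lower by 0.46 on the log2 scale overnight, then higher by 4.19 at day 3 and by 1.19 at day 10.

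The 4 transfer RNA probes did not keep their proportions. The log2 ratio of tRNA-his less that of tRNA-met was -0.02 overnight, -1.74 at day 3 and -0.35 at day 10, and that of tRNA-his less tRNA-pro was -1.13, -3.29 and -0.91. U6 less tRNA-ala was 2.30 overnight, 0.29 at day 3 and -0.02 at day 10. These are differences of ratios on the same arrays, with no test.

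For use as a reference a probe should have the same level in activated and naive cells, and the spread of its ratio measures only part of this. A steady ratio can still lie away from 0: tRNA-met was below 0 on all 5 arrays as deposited, with a day 3 mean of -1.91. As deposited the spread also holds the differing zeros of the arrays. Which members varied least depended on the scale. As deposited, tRNA-pro (SD 0.51 over 5 arrays) and tRNA-met (SD 0.55) varied least among the members, with 5 and 6 of the 171 microRNA probes varying less. Without the overnight array 26 and 28 microRNA probes varied less. Over the 5 arrays all 7 members had an SD below that of the median microRNA probe, 1.40, the highest being tRNA-his at 1.33 and 4.8S_U6-snRNA at 1.23. Without the overnight array 6 of the 7 did, as tRNA-his then had 117 microRNA probes varying less, where it had 75 over the 5 arrays, and for tRNA-ala the number was 78, where it had been 35.

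Relative to the microRNA median the order changed. AJ007734_snRNA (SD 0.48) and 5.4S_snRNA (SD 0.65) varied less than the median microRNA probe, at 0.84, and the other members more. The U6 probe had an SD of 2.18, with 157 microRNA probes varying less, and tRNA-his one of 2.36, with 162 varying less. For tRNA-pro, the steadiest as deposited, the SD was 1.18, with 108 varying less. Without the overnight array it too lay below the median microRNA probe, with 81 varying less. On this scale 25 microRNA probes varied less than AJ007734_snRNA, the steadiest member. The steadiest microRNA probes were miR-98 (1org-98, SD 0.20), miR-33 (2org-33, SD 0.21) and 1org-130a (SD 0.22).

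**Figure D3:**
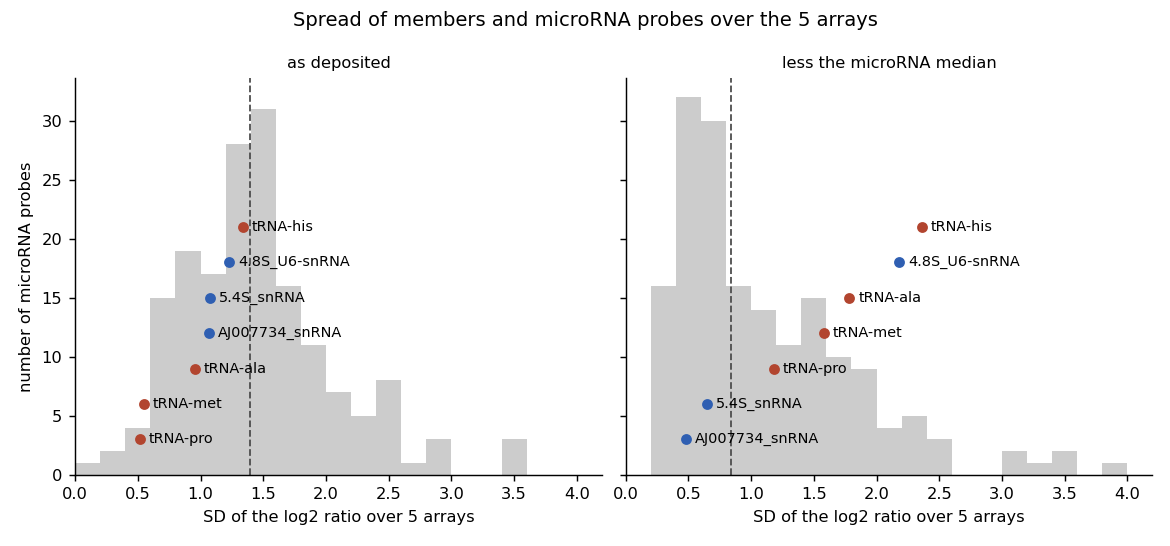
SD of the log2 ratio over the 5 arrays (x axis), as deposited on the left and less the array's microRNA median on the right; grey bars count microRNA probes (y axis), the dashed line is their median, and points mark transfer RNA probes (red) and small nuclear RNA probes (blue) at heights that only separate their names. As deposited all 7 members lie left of the dashed line at 1.40, and less the median only AJ007734_snRNA and 5.4S_snRNA lie left of the line at 0.84.

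The choice of reference set most of the microRNA result at day 3. With the U6 probe as the zero of each array, 146 of the 171 microRNA probes were at least 2-fold higher in activated cells and 5 lower, while with the microRNA median 26 were higher and 34 lower. With tRNA-his 163 were higher and 1 lower, with tRNA-ala 152 and 4, with tRNA-met 145 and 8, and with tRNA-pro 103 and 21. The mean of the 4 transfer RNA probes gave 146 and 6, that of the 3 small nuclear RNA probes 115 and 19, and that of all 7 members 135 and 9.

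The 2 members nearest to the microRNA median gave counts closer to it. With 5.4S_snRNA 37 were higher and 31 lower at day 3, and with AJ007734_snRNA 69 and 22, beside 65 and 22 as deposited. The shift is the same for every microRNA on an array, since setting the zero by a member takes its ratio off all probes.

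MiR-155 and probe 1org-150, the 2 microRNAs followed, kept their direction at day 3 under every reference tried, with other sizes. MiR-155 was at 7.09 with the U6 probe, at 8.53 with tRNA-his and at 4.34 with 5.4S_snRNA, against 4.07 with the microRNA median. Probe 1org-150 was at -3.04 with the U6 probe, at -1.60 with tRNA-his and at -5.79 with 5.4S_snRNA, against -6.05 with the microRNA median. Overnight the direction of both depended on the reference: with the U6 probe miR-155 was at -0.31 and 1org-150 at -0.64, and with AJ007734_snRNA they were at 2.07 and 1.74, against 1.80 and 1.47 with the microRNA median.

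At day 10, where the members lay close to the microRNA median, the references differed less. With the U6 probe 30 microRNA probes passed 2-fold upward and 3 downward, with tRNA-ala 30 and 3, and with AJ007734_snRNA 30 and 3, against 25 and 7 with the microRNA median. The extremes were tRNA-his, with 55 higher and 1 lower, and 5.4S_snRNA, with 18 higher and 26 lower. Between day 10 and day 3 the U6 reference gave 4 microRNA probes higher and 135 lower at day 10, against 48 and 23 with the microRNA median.

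**Figure D4:**
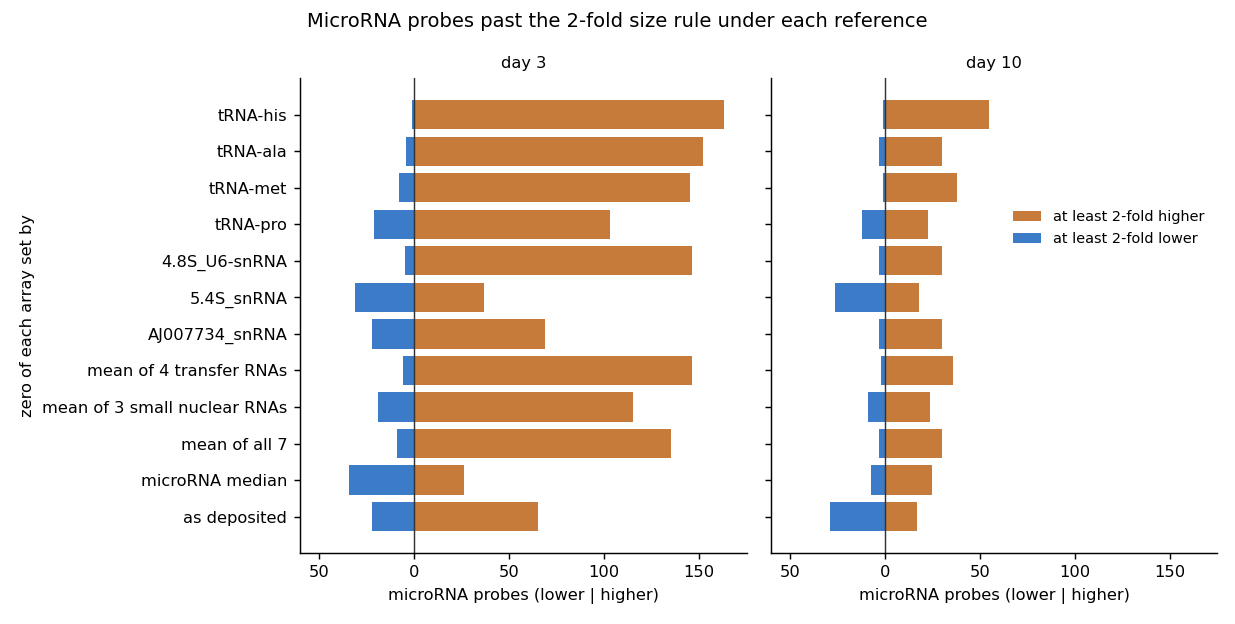
Number of the 171 microRNA probes at least 2-fold higher (orange, right) or lower (blue, left) in activated cells (x axis) at day 3 and day 10, when the zero of each array is set by each member, by class means, by the microRNA median or left as deposited (y axis). At day 3 the higher count runs from 163 with tRNA-his to 26 with the microRNA median, and at day 10 from 55 with tRNA-his to 17 as deposited.

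The microRNA probes with the most similar ratios were found by the smallest root mean square difference over the 5 arrays as deposited. Naive cells are the denominator on every array. For tRNA-his these were 1org-7c (0.47) and let-7b (1org-7b, 0.53), for tRNA-met 1org-30d (0.29) and 1org-7a (0.40), and for tRNA-ala 1org-30c (0.29) and miR-26b (1org-26b, 0.33). MiR-26b was at -1.90 overnight, at -3.03 and -2.90 at day 3 and at -0.74 and -0.83 at day 10, lower at day 3 as tRNA-ala was. For tRNA-pro they were 1org-191 (0.18) and miR-93 (1org-93, 0.28).

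For 4.8S_U6-snRNA the closest microRNA probes were 1org-7d* (0.68) and miR-25 (2org-25, 0.69), the largest distances of any member. MiR-25 was at -0.22 overnight, at -1.89 and -1.39 at day 3 and at 0.34 and -0.56 at day 10. For 5.4S_snRNA they were miR-28 (2org-28, 0.44) and 2org-198 (0.45), and for AJ007734_snRNA 1org-194 (0.28) and 2org-211 (0.33). Probes given by identifier alone have no gene in the annotation used.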

How the data were processed

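The deposited table holds 1 log ratio per probe and array for 178 probes and 5 arrays, and 0 other columns of per-sample values. The authors deposited these values without a stated log base, read here as log2. For scanner, image analysis and normalization the labels name nothing. Groups and dyes came from the labels, and ratios of arrays with activated RNA in Cy3 were multiplied by -1. The deposited values of the dye pairs correlated at r = -0.66 (day 3) and r = -0.43 (day 10) over the 171 microRNA probes, so they had not been turned. The microRNA median of each array was taken off for the second scale. Tests used limma 3.58.1 in R 4.3.3 (lmFit, eBayes, 2-sided, Benjamini-Hochberg over all 178 probes, threshold 0.05): the pair means of the 3 times against 0, and, as an alternative, the 5 arrays with coefficients for each time and for the dye. Both were run on simulated data with the same effect at all times and no shift of an array's zero. That setting does not cover arrays whose zeros differ, as these do. Further alternatives were a 1.5-fold rule, centring on the mean, arrays brought to one spread, and leaving out each array. Naive RNA is the control on every array, so no test holds its spread. Within a time a size rule (2-fold, same sign on both arrays; between times, pairs without overlap) gave calls without a test. Named microRNA probes were 1org-155, 1org-150, the 2 most alike to each member, the 3 with the smallest SD and the cell type markers. Members were taken by name alone, and that rule, the lists and the tests were set with earlier results of these data known. The platform annotation gave 1 gene for 61 probes, several for 1 and none for 116.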

Additional observations from a re-analysis of the deposited data

Results flagged for a closer look

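In the fit over the 5 arrays, some differences between activation times passed. As deposited, 3 of 7 members passed for day 10 minus day 3, 3 for day 3 minus overnight and 0 for day 10 minus overnight, where 10.1%, 63.5% and 11.2% of all probes were called higher and 42.1%, 3.93% and 1.12% lower. Day 10 minus day 3 as deposited was 1.55 ± 0.64 for 4.8S_U6-snRNA, 1.86 ± 0.64 for tRNA-ala and 2.43 ± 0.64 for tRNA-his (SE, limma adjusted p from 0.0017 to 0.032). Relative to the microRNA median it was 2.81 for 4.8S_U6-snRNA, 3.12 for tRNA-ala, 3.68 for tRNA-his and 2.30 for tRNA-met (SE 0.54 for each of them). For tRNA-pro it was 1.31 with opposite signs on every array of the 2 times, and the limma fit did not pass (adjusted p = 0.051).

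Differences from the single overnight array were tested after the values were seen, with the dye term. Day 3 minus overnight as deposited was -2.92 for 4.8S_U6-snRNA (limma adjusted p = 0.0024), -2.40 for tRNA-his (adjusted p = 0.011) and 2.32 for 5.4S_snRNA (adjusted p = 0.013). With the microRNA median taken off it was -5.14 for 4.8S_U6-snRNA, -4.62 for tRNA-his, -2.89 for tRNA-pro, -2.82 for tRNA-met and -2.66 for tRNA-ala (limma adjusted p of at most 0.0011). The arrays of 5.4S_snRNA lay below the median at day 3 (mean -0.27) and above it overnight (0.09). In the fit, which takes off the dye effect, the overnight estimate was -0.37, and day 3 minus overnight was 0.10 (limma adjusted p = 0.98).

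Day 10 minus overnight had opposite signs for 4.8S_U6-snRNA on both scales, at -1.37 as deposited (limma adjusted p = 0.29) and -2.33 less the microRNA median (adjusted p = 0.015). Less the median the signs were also opposite for tRNA-his, at -0.94 (adjusted p = 0.50), and tRNA-met, at -0.52 (adjusted p = 0.78). With the dye effect taken off in the fit, the overnight estimates less the median were only 0.17 for tRNA-his and 0.098 for tRNA-met. All of these differences rest on the 1 overnight array, whose own spread is unknown and is taken from the dye pairs.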

How the results depend on the processing

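Of 88 alternative counts of members, 79 were equal to the value given or within 1.5 times it. Many of the 79 set a count of 0 against 0, so the total overstates how firmly the calls hold. In the limma test over the 3 times 0 members passed on either scale, and 3 passed with the 5 arrays as replicates, tRNA-his, tRNA-ala and tRNA-met, on both scales. That fit treats the 2 arrays of a dye pair as separate, which was not tested. It called 2 members lower overnight as deposited (tRNA-ala and 5.4S_snRNA), against 5 by size. With a 1.5-fold rule 4 members were lower at day 10 as deposited, against 1, and 1 less the microRNA median, against 0. At day 10 as deposited the median was -0.63 over the members and -0.57 over all probes. Shares of all probes were not counted under the 1.5-fold rule or with arrays left out, so these counts do not mark the members out. Leaving out 1 array at a time gave 1 to 2 members lower at day 10 as deposited (2 without the array with activated RNA in Cy5) and 0 to 1 higher less the median (1 without the array with it in Cy3). It gave 0 to 2 lower at day 10 than at day 3, with 2 without the day 3 array that held activated RNA in Cy5 and 1 without the day 10 array that did. As deposited 7 members varied less than the median microRNA probe over the 5 arrays, and 6 without the overnight array. The day 3 counts of lower members stayed within 1.5 times under every alternative run, and those of higher members stayed at 0. Less the microRNA median, no called value of a single member turned sign with centring on the mean or arrays brought to one spread. Leaving out 1 array could not turn a called value, because a call needs the same sign on both arrays. Values that were not called could turn. As deposited, tRNA-pro at day 3 was at -0.36, and at 0.34 without the array with activated RNA in Cy5. Centring moved the median of all probes by 1.75 overnight, so overnight directions hold only on the scale named. The arrays carry no measure of signal over background here.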

Other observations

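Between the arrays of a dye pair, the part of a ratio that does not turn with the dye was small as deposited for 3 transfer RNA probes. At day 3 it was -0.04 for tRNA-his, 0.06 for tRNA-met and 0.09 for tRNA-ala on the log2 scale, with 5, 7 and 15 of the 171 microRNA probes smaller in size. It was larger for AJ007734_snRNA (-0.98), 4.8S_U6-snRNA (-0.74), tRNA-pro (-0.70) and 5.4S_snRNA (-0.46), beside a median size of 0.55 over the microRNA probes. These values include the gap between the zeros of the paired arrays. Less the microRNA median, tRNA-ala (0.70), tRNA-met (0.67) and tRNA-his (0.57) were instead the largest in size at day 3. The other sizes were then 0.37 for AJ007734_snRNA, 0.16 for 5.4S_snRNA, 0.13 for 4.8S_U6-snRNA and 0.09 for tRNA-pro. At day 10 as deposited the median size over the microRNA probes was 0.20, and 5.4S_snRNA had the largest among the members (0.70).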
